A study of Mus musculus with 2 samples.

Results

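Myogenin (Myog), its relative Myf6, the MEF2 genes Mef2a, Mef2c and Mef2d, and the differentiation regulators Rbm24 and Casz1 were followed in single cells of regenerating mouse muscle. They were chosen by symbol, and all 7 were among the 32286 features counted. Satellite cells are the stem cells of skeletal muscle. After injury they divide as myoblasts, leave the cell cycle, switch on Myog and then the genes of the contractile apparatus, and fuse. Myogenin is a basic helix-loop-helix factor required for this terminal step, and Myf6 (MRF4) is the family member best known from maturing and adult fibres. MEF2 proteins are MADS-box factors that bind next to the myogenic helix-loop-helix factors on muscle genes and also act in other lineages, including vascular smooth muscle and macrophages. Rbm24 is an RNA-binding protein that controls muscle splicing and binds the Myog messenger. Casz1 is a zinc-finger transcription factor known from heart and skeletal muscle differentiation.

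The study sorted satellite cells of Pax3GFP/+ mice by their green fluorescence 5 days after injury, and the comparison of the sorted fractions asks how PAX3-positive and PAX3-negative satellite cells differ. The GFP+ fraction (labelled PAX3-positive) and the GFP− fraction (labelled PAX3-negative) were taken from biceps and recto femoris muscles, and about 20000 cells of each were loaded for droplet-based 3′ RNA sequencing. Both fractions came from Pax3GFP/+ animals, and the genotype field of both labels reads wild-type. The sources used here do not give the age or sex of the mice, the injury agent or the number of animals pooled. There was 1 library per fraction, so no difference below has a replicate check or a test, and every interval is a 95% interval that covers counting error only.

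A barcode counted as a cell from 1000 unique molecular identifiers (UMIs) and 500 genes upward if no more than 10% of its UMIs were mitochondrial. By this rule the GFP+ library held 604 cells (median depth 18534.5 UMIs) and the GFP− library 2683 cells (median depth 14663 UMIs), and 2 barcodes occurred in both. The labels held at the RNA level: Pax3 had 19.8 UMIs per 1000000 UMIs of the summed cells (CPM) in GFP+ cells and 4.95 CPM in GFP− cells, and the added reporter feature had 570 UMIs in GFP+ and 0 in GFP− cells. Other cell types were present unequally. The 8 macrophage markers summed to 3300 CPM in GFP+ and 355 CPM in GFP− cells, with none at 0. The 8 mural cell markers summed to 1440 CPM in GFP+ and 2065 CPM in GFP− cells, but this sum was highest in cells above 30 Myog UMIs per 10000 (0.422% of UMIs in GFP+ and 0.459% in GFP− cells), none of which was in the mural-like cluster, and the mural marker Rgs5 stood at 1.75 CPM in GFP+ and 275 CPM in GFP− cells. Endothelial markers summed to 3.42 CPM in GFP+ and 18.0 CPM in GFP− cells, with Cdh5 and Emcn at 0 in GFP+ cells. Of the clusters described further on, the macrophage-like one made up 12.6% of GFP+ and 2.12% of GFP− cells, the mural-like one 1.49% of GFP+ and 5.14% of GFP− cells, and the glial-like one 0 GFP+ and 0.671% of GFP− cells. The mural-like cluster also had the fibro-adipogenic genes Aspn and Dcn among its top genes. Against all other cells its mean log2 ratio was 4.57 for the mural, 3.57 for the fibro-adipogenic and 2.81 for the endothelial markers. In a finer clustering its counterpart led by Rgs5 held 0 GFP+ and 119 GFP− cells, so the 9 GFP+ cells are not shown to be mural. That counterpart still had a mean log2 ratio of 3.14 for the endothelial markers, so endothelial cells were not separated from mural ones. Some results that these classes touch are also given without them, and their part in the other results was not tested.

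The genes were located by their identifiers in GENCODE M21 (GRCm38, the build called mm10). Myog spans chr1:134289989-134292548 on the plus strand and Myf6 chr10:107492853-107494737 on the minus strand. Mef2a spans chr7:67231163-67372858 (minus), Mef2c chr13:83504034-83667080 (plus) and Mef2d chr3:88142372-88172086 (plus). Rbm24 spans chr13:46418434-46431095 and Casz1 chr4:148804429-148954889, both on the plus strand. The sources used here do not say whether counting used strand. Genes on the opposite strand overlap Mef2a (Lysmd4, 179 UMIs in the kept cells of both libraries), Mef2d (1700113A16Rik, 64 UMIs) and Casz1 (Gm13205, 58 UMIs), so without strand those reads could not be told apart.

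The promoters of the members are shown for the letters that myogenic helix-loop-helix factors and MEF2 proteins bind, the E-box CANNTG and the MEF2 core. The sequences are the 250 bases before the RefSeq start on GRCm38.p6, 5′ to 3′, with every match to either motif on either strand in capitals. The members Myog, Mef2c and Rbm24 had a match in at least 1 window.
Myog, chr1:134289754-134290003, plus strand: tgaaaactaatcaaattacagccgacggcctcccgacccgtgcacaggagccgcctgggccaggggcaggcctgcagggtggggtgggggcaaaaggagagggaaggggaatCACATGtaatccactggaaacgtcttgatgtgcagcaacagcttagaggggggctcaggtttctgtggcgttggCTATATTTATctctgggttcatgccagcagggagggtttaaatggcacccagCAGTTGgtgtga
Mef2c, chr13:83503784-83504033, plus strand: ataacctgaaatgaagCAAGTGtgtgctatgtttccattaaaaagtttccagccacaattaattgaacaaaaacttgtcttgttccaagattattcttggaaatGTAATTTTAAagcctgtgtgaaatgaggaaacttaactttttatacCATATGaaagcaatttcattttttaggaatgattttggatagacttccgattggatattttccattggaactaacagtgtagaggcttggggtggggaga
Rbm24, chr13:46418050-46418299, plus strand: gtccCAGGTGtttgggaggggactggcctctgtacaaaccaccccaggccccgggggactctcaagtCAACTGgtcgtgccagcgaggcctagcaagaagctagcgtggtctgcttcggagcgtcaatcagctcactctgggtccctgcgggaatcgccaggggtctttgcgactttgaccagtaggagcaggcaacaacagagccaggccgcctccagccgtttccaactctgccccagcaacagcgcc
The Myog window holds a MEF2 core at positions −64 to −55 from the start and E-boxes at −138 to −133 and −12 to −7. The GENCODE start of Myog lies inside this window, so the E-box nearest the RefSeq start is within the annotated gene there. The first of 3 Mef2c windows holds a MEF2 core at −146 to −137 and E-boxes at −234 to −229 and −100 to −95, and the other Mef2c windows hold 0 and 1 E-box and no MEF2 core. Rbm24 has E-boxes at −246 to −241 and −183 to −178 and no MEF2 core. The windows of Mef2a, Mef2d and Casz1 (2 starts) hold neither motif, which says only that these letters are not in these windows. Of 32851 promoter windows of this length, 66.2% hold an E-box, 8.48% a MEF2 core and 5.84% both, and a match is a description of letters, not a site in use.

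Summed over all kept cells, the 7 genes stood at close levels in the sorted fractions, and none with enough UMIs was 1.5-fold apart. Myog had 10528 UMIs (879 CPM) in GFP+ cells and 34147 UMIs (771 CPM) in GFP− cells, a ratio of 1.14 (1.11 to 1.16). Rbm24 stood at 114 CPM in GFP+ and 110 CPM in GFP− cells, a ratio of 1.04 (0.975 to 1.10). As means over cells both lay on the other side, Myog at 0.978 and Rbm24 at 0.910. The MEF2 genes and Casz1 were on the lower side in GFP+ cells. Mef2a stood at 143 CPM in GFP+ and 172 CPM in GFP− cells, a ratio of 0.831 (0.788 to 0.876). Mef2d stood at 42.1 CPM in GFP+ and 49.7 CPM in GFP− cells (ratio 0.849, 0.769 to 0.935), and at a ratio of 1.02 as a mean over cells. Casz1 stood at 15.2 CPM in GFP+ and 18.95 CPM in GFP− cells (ratio 0.801, 0.679 to 0.942). Mef2c stood at 24.5 CPM in GFP+ and 33.6 CPM in GFP− cells, a ratio of 0.731 (0.643 to 0.829). Without the 3 other cell classes (macrophage-like, mural-like, glial-like) it had 118 UMIs (11.2 CPM) in GFP+ and 992 UMIs (23.5 CPM) in GFP− cells, and the ratio was 0.475. Mef2c was thus the member whose fraction difference moved most with the other cell types.

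Of the 5 members that reached 20 CPM in either fraction, 0 were at least 1.5-fold higher and 0 at least 1.5-fold lower in GFP+ cells, against 6.94% and 2.63% of the 6007 genes that reached it. The median log2 ratio over those genes was −0.11. Myf6 was close to the detection limit, with 33 UMIs (2.75 CPM) in GFP+ and 75 UMIs (1.69 CPM) in GFP− cells, a ratio of 1.63 (1.05 to 2.48). Mef2b, the MEF2 gene outside the list, had 2 UMIs in GFP+ and 1 in GFP− cells. In empty droplets, which hold free RNA, Myog stood at 979 CPM in the GFP+ and 731 CPM in the GFP− library and Mef2c at 25.8 CPM in the GFP+ and 24.1 CPM in the GFP− library. A summed level cannot tell fewer expressing cells from less RNA per cell, so the cells were next ordered by their own Myog level.

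Along rising Myog, Rbm24 and Mef2a were higher from cells with moderate Myog on, Casz1 was high where Myog was high, and Mef2c stood apart between the libraries. Cells were binned by Myog UMIs per 10000 UMIs of the cell: 0, up to 2, 2 to 10, 10 to 30 and above 30. The bins held 471, 49, 23, 11 and 50 GFP+ cells and 1943, 256, 139, 115 and 230 GFP− cells. Rbm24, in that order of bins, stood at 38.9, 72.6, 264, 503 and 476 CPM in GFP+ cells. In GFP− cells it stood at 38.6, 79.6, 206, 338 and 435 CPM. In the 2 to 10 bin Rbm24 was thus at 55.5% of its top-bin level in GFP+ and 47.3% in GFP− cells, where Myog itself, which made the bins, was at 7.39% (GFP+) and 8.32% (GFP−) of its own. Mef2a stood at 100, 79.8, 235, 440 and 376 CPM in GFP+ cells and at 105, 135, 218, 352 and 526 CPM in GFP− cells. It was at 62.5% of its top-bin level in the 2 to 10 bin of GFP+ cells and at 41.4% in that of GFP− cells.

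Casz1 was low until Myog was high. In GFP+ cells it had 11, 2, 5, 4 and 160 UMIs over the bins, or 1.33, 1.32, 9.87, 18.0 and 110 CPM. In GFP− cells it had 40, 5, 21, 99 and 674 UMIs, or 1.37, 0.915, 7.97, 43.1 and 147 CPM. The 2 to 10 bin held 8.93% of the top-bin level in GFP+ and 5.42% in GFP− cells. The level in Myog-0 cells lay below that of empty droplets, at 15.02 CPM in the GFP+ and 14.6 CPM in the GFP− library. Mef2d spanned less along the bins than Casz1 or Rbm24, with 38.4, 29.7, 13.8, 62.9 and 83.5 CPM in GFP+ cells and 38.3, 32.0, 48.9, 71.9 and 133 CPM in GFP− cells. The GFP+ dip at 2 to 10 rested on 7 UMIs, with an interval of 5.55 to 28.5 CPM.

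Mef2c showed no rising order over the first 4 bins and was high in the last one of the GFP− library. GFP+ cells had 24.3, 20.5, 23.7, 0 and 34.5 CPM, where the 0 is a bin of 11 cells whose interval reaches 16.6 CPM. GFP− cells had 24.5, 14.3, 14.8, 16.5 and 134 CPM. Macrophage-like cells made up 15.3% of the Myog-0 bin in GFP+ and 2.57% in GFP− cells. Without the 3 other cell classes Mef2c stood at 5.202 CPM in GFP+ and 8.93 CPM in GFP− cells with no Myog UMI, and at 34.5 CPM in GFP+ and 135 CPM in GFP− cells of the top bin. Myf6 lay mostly in cells with no Myog UMI, which were also most cells: 27 of its 33 GFP+ UMIs and 59 of its 75 GFP− UMIs.

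**Figure D1:**
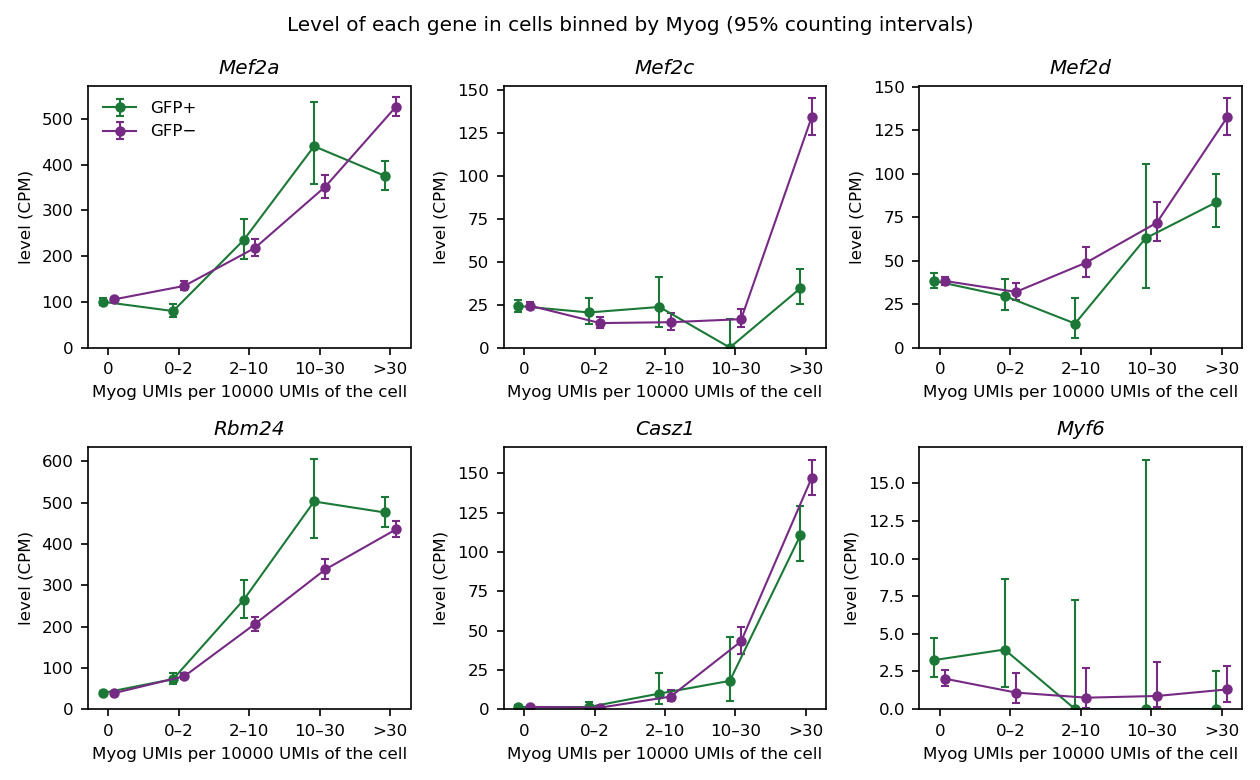
Levels of Mef2a, Mef2c, Mef2d, Rbm24, Casz1 and Myf6 (CPM of summed UMIs, vertical axes) in bins of rising Myog (horizontal axes, Myog UMIs per 10000 UMIs of the cell), with GFP+ in green and GFP− in purple and bars for the 95% counting intervals. Rbm24 and Mef2a are raised from the 2 to 10 bin on, Casz1 stands out in the top bin at 110 CPM (GFP+) and 147 CPM (GFP−), and Mef2c parts the libraries in the top bin at 34.5 CPM (GFP+) and 134 CPM (GFP−).

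With the upper bins joined, Myog-high cells (above 10 per 10000; 61 GFP+ and 345 GFP− cells) were set against Myog-0 cells of the same library. Casz1 had 98.1 CPM in Myog-high and 1.33 CPM in Myog-0 cells of the GFP+ library, a ratio of 73.9 (40.3 to 151). In the GFP− library it had 112 CPM in Myog-high and 1.37 CPM in Myog-0 cells, a ratio of 82.2 (59.8 to 116). Rbm24 had 480 CPM in Myog-high and 38.9 CPM in Myog-0 cells of the GFP+ library (12.4-fold, 10.8 to 14.1), and 403 CPM in Myog-high and 38.6 CPM in Myog-0 cells of the GFP− library (10.4-fold, 9.74 to 11.2). Casz1, Rbm24, Mef2a and Mef2d had this order of ratios in both libraries. Mef2a had 384 CPM in Myog-high and 100 CPM in Myog-0 GFP+ cells (3.83-fold, 3.45 to 4.25), and 468 CPM in Myog-high and 105 CPM in Myog-0 GFP− cells (4.45-fold, 4.23 to 4.67). Mef2d had 80.8 CPM in Myog-high and 38.4 CPM in Myog-0 GFP+ cells (2.11-fold, 1.71 to 2.58), and 112 CPM in Myog-high and 38.3 CPM in Myog-0 GFP− cells (2.93-fold, 2.67 to 3.22). Mef2c was the member whose ratios differed most between the libraries. It had 29.9 CPM in Myog-high and 24.3 CPM in Myog-0 cells of the GFP+ library, a ratio of 1.23 with an interval that includes 1 (0.886 to 1.69), and of 0.806 as a mean over cells. In the GFP− library it had 94.9 CPM in Myog-high and 24.5 CPM in Myog-0 cells, a ratio of 3.88 (3.48 to 4.32). Without the 3 other cell classes the Mef2c ratio was 5.75 in GFP+ and 10.7 in GFP− cells.

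At 2-fold, 4 members besides Myog were higher in Myog-high GFP+ cells (Mef2a, Mef2d, Rbm24 and Casz1) and 5 in Myog-high GFP− cells (these and Mef2c), against 8.9% of 6224 and 6.69% of 6199 genes. Casz1 reached 20 CPM only in the Myog-high cells, so it passed that limit through the group where it was high. Myf6 did not reach 20 CPM: it had 0 UMIs in Myog-high and 27 in Myog-0 cells of the GFP+ library, and 8 UMIs in Myog-high and 59 in Myog-0 cells of the GFP− library, a ratio of 0.577 whose interval includes 1 (0.238 to 1.21). Among its relatives, Myod1, the determination factor, was 7.87-fold higher (6.85 to 9.06) in Myog-high GFP+ and 8.60-fold higher (8.02 to 9.24) in Myog-high GFP− cells. Myf5, the early determination factor, was at 0.0519 of its Myog-0 level in Myog-high GFP+ and at 0.136 in Myog-high GFP− cells.

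Acta1, which encodes skeletal alpha-actin, gave a further order of the cells, by a gene of the contractile apparatus. Cells were binned by Acta1 UMIs per 10000: 0, up to 1, 1 to 10, 10 to 100 and above 100, with 482, 58, 38, 23 and 3 GFP+ cells and 1986, 328, 226, 122 and 21 GFP− cells. Myog stood at 173, 460, 3592, 6449 and 7013 CPM over these bins in GFP+ cells and at 194, 337, 1816, 5560 and 6584 CPM in GFP− cells. It was near its top level by the 10 to 100 bin, at 92.0% in GFP+ and 84.4% in GFP− cells. Rbm24 was highest in that bin in GFP− cells, with 398 CPM (375 to 422) in the 10 to 100 bin and 315 CPM (271 to 364) above 100.

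Mef2c had the smallest share of its top-bin level at 10 to 100 among the members other than Myf6, in both libraries. In GFP+ cells it stood at 23.6, 15.2, 23.2, 47.5 and 110 CPM, with 43.1% of the top-bin level at 10 to 100 and the last value from 11 UMIs in 3 cells. In GFP− cells it stood at 23.0, 12.8, 23.8, 129 and 434 CPM, with 29.7% of the top-bin level at 10 to 100. The mural marker sum stood at 0.482% of UMIs at 10 to 100 and 0.493% above 100 in GFP+ cells, and at 0.413% at 10 to 100 and 0.827% above 100 in GFP− cells. No cell of these bins was in the mural-like cluster, and the part of these markers in the Mef2c level was not tested. Casz1 was nearer its top there: in GFP+ cells it stood at 3.81, 4.67, 72.2, 92.2 and 170 CPM, with 54.2% of its top-bin level at 10 to 100. In GFP− cells Casz1 stood at 5.85, 8.17, 38.1, 134 and 159 CPM, with 84.3%. Mef2a stood at 564 CPM at 10 to 100 and 552 CPM above 100 in GFP− cells, and Mef2d at 118 CPM and 163 CPM. Among the members other than Myf6, only Mef2c was thus over 2-fold higher above 100 than at 10 to 100 in both libraries.

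**Figure D2:**
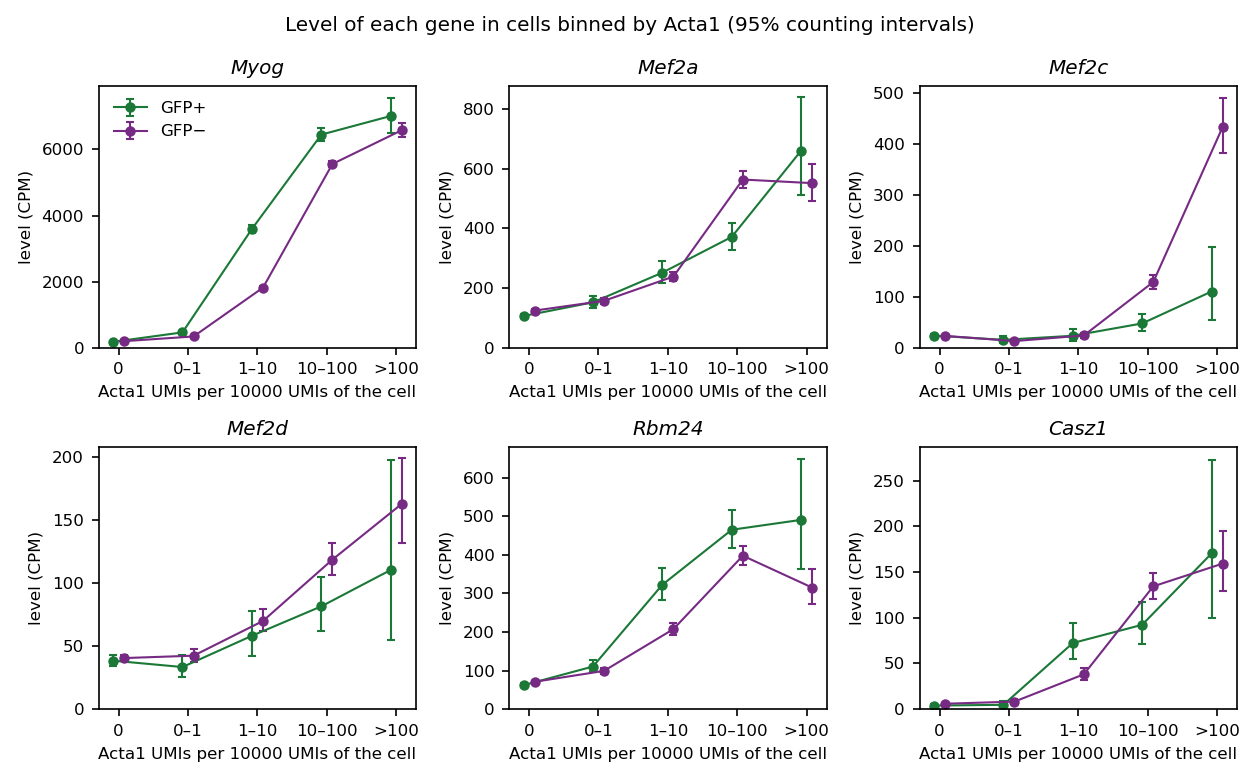
Levels of Myog, Mef2a, Mef2c, Mef2d, Rbm24 and Casz1 (CPM of summed UMIs, vertical axes) in bins of rising Acta1 (horizontal axes, Acta1 UMIs per 10000 UMIs of the cell), with GFP+ in green and GFP− in purple and bars for the 95% counting intervals. Myog and Rbm24 are near their top level at 10 to 100, while Mef2c in GFP− cells goes on from 129 CPM in that bin to 434 CPM above 100.

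All 6 members other than Myf6 were at least 2-fold higher in Acta1-high cells (above 10 per 10000) than in Acta1-low cells (at most 1), in both libraries, against 8.83% of genes in GFP+ and 7.91% in GFP− cells. Casz1 reached 20 CPM in the Acta1-high cells only. The comparison set 26 Acta1-high against 540 Acta1-low cells in the GFP+ library and 143 against 2314 in the GFP− library. Myog was 29.5-fold higher (28.1 to 31.0) in GFP+ and 26.0-fold higher (25.3 to 26.7) in GFP− cells. Casz1 had 102 CPM in Acta1-high and 3.95 CPM in Acta1-low GFP+ cells (25.7-fold, 17.5 to 38.2), and 139 CPM in Acta1-high and 6.28 CPM in Acta1-low GFP− cells (22.1-fold, 18.8 to 25.9). Rbm24 was 6.69-fold higher (5.90 to 7.57) in GFP+ and 5.04-fold higher (4.71 to 5.38) in GFP− cells. For these genes the libraries lay within 1.5 times of each other. Mef2c was 2.48-fold higher (1.76 to 3.41) in Acta1-high GFP+ cells and 8.65-fold higher (7.77 to 9.62) in Acta1-high GFP− cells. Over 10 alternatives these ratios ranged from 1.91 to 8.23 in GFP+ and from 5.51 to 20.3 in GFP− cells. Macrophage-like cells, which express Mef2c, made up 14.5% of GFP+ and 2.11% of GFP− cells with no Acta1 UMI. Leaving out macrophage-like, mural-like and glial-like cells together was among these alternatives. The part of macrophage-like cells alone in the 2 Mef2c ratios was not tested. Mef2a was 3.58-fold higher in GFP+ and 4.31-fold higher in GFP− cells, and Mef2d 2.26-fold in GFP+ and 3.09-fold in GFP− cells.

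Nearly all Acta1-high cells also had Myog, so the Acta1 axis was next read within Myog-expressing cells, those above 2 Myog UMIs per 10000. Of these, 26 GFP+ and 139 GFP− cells were above 10 Acta1 UMIs per 10000 (Acta1-rich), and 58 GFP+ and 345 GFP− cells were at or below 10 (Acta1-poor). Only 0 GFP+ and 4 GFP− cells were Acta1-rich without passing the Myog limit. Mef2c set the Acta1-rich cells apart: it had 46 UMIs (55.0 CPM) in Acta1-rich and 16 UMIs (11.9 CPM) in Acta1-poor GFP+ cells, a ratio of 4.60 (2.56 to 8.71). This ratio ranged from 2.03 to 13.7 over 10 alternatives. Of the 16 UMIs 7 came from 1 cell, without which the Acta1-poor GFP+ level was 6.74 CPM. In the GFP− library it had 612 UMIs (187 CPM) in Acta1-rich and 80 UMIs (12.8 CPM) in Acta1-poor cells, a ratio of 14.6 (11.5 to 18.6). Rbm24 had ratios near 1, with 468 CPM in Acta1-rich and 406 CPM in Acta1-poor GFP+ cells (1.15, 1.01 to 1.32) and 391 CPM in Acta1-rich and 326 CPM in Acta1-poor GFP− cells (1.20, 1.12 to 1.29). In GFP+ cells the Rbm24 ratio was 0.805 with cells thinned to 5000 UMIs.

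Between them, Casz1 had 102 CPM in Acta1-rich and 62.7 CPM in Acta1-poor GFP+ cells (1.62, 1.18 to 2.22), and 142 CPM in Acta1-rich and 52.5 CPM in Acta1-poor GFP− cells (2.71, 2.35 to 3.13). Myog was 1.75-fold higher (1.69 to 1.82) in Acta1-rich GFP+ and 2.54-fold higher (2.48 to 2.59) in Acta1-rich GFP− cells. Mef2d had ratios of 1.60 (1.14 to 2.26) in GFP+ and 1.65 (1.44 to 1.88) in GFP− cells, and Mef2a of 1.29 (1.12 to 1.496) in GFP+ and 1.82 (1.71 to 1.95) in GFP− cells. As a mean over cells the Mef2a ratio in GFP+ cells was 0.885. At 2-fold, 1 member was higher in Acta1-rich GFP+ cells (Mef2c) and 3 in GFP− cells (Myog, Mef2c and Casz1), against 3.69% of 5666 and 4.34% of 5740 genes. Mef2c reached 20 CPM in the Acta1-rich cells only.

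The sorted fractions were then compared at matched states, a comparison chosen after the data were seen. In Acta1-rich Myog-expressing cells Mef2c was at 55.0 CPM in GFP+ and 187 CPM in GFP− cells, a ratio of 0.294 (0.213 to 0.397). It had a UMI in 10 of 26 GFP+ and 87 of 139 GFP− cells. Without the cell with most Mef2c UMIs in each library, it stood at 45.7 CPM in GFP+ and 175 CPM in GFP− cells. Thinned to 5000 UMIs a cell, 12.5% of Acta1-high GFP+ cells (3 of 24, exact interval 2.66 to 32.4) and 34.3% of Acta1-high GFP− cells (47 of 137, 26.4 to 42.9) had a Mef2c UMI. Mef2c was thus lower in GFP+ cells of this state by UMIs and by unthinned cells with a UMI. The thinned shares are of Acta1-high cells, a set not limited by Myog, and their intervals overlap.

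The same Acta1-rich cells also differed in their contractile genes, so the state was not fully matched. Of 18 contractile genes that reached 20 CPM, 15 were at least 1.5-fold lower and 0 higher in GFP+ cells, with a median log2 ratio of −1.02 against −0.05 over all 5528 genes. The fast troponin gene Tnnc2 was at 0.0916 (0.0540 to 0.146) and Tnnt3 at 0.192 (0.160 to 0.230) of their GFP− level. Acta1 was at 0.808 (0.781 to 0.836), and the part of this difference in the Mef2c ratio was not tested. Within single Acta1 bins the Mef2c ratio was 0.975 (0.552 to 1.63) at 1 to 10, 0.368 (0.253 to 0.522) at 10 to 100 and 0.254 (0.125 to 0.462) above 100. At 1 to 10, macrophage-like cells made up 5.26% of GFP+ and 3.54% of GFP− cells, and mural-like ones 0% of GFP+ and 1.33% of GFP− cells. Their part in that ratio was not tested. Within the Myog bin above 30 it was 0.257 (0.189 to 0.344).

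The other members moved less between the fractions in Acta1-rich cells. Mef2d had 84.8 CPM in GFP+ and 128 CPM in GFP− cells (0.665, 0.509 to 0.856). As a mean over cells its ratio was 1.0003, which ends its call. By cell, the median of Mef2d was 0.733 UMIs per 10000 in these GFP+ and 1.20 in these GFP− cells. The highest cell stood at 14.3 in GFP+ and at 5.34 in GFP− cells. The part of the highest GFP+ cell in the ratio of 1.0003 was not tested. Mef2a had 406 CPM in GFP+ and 567 CPM in GFP− cells (0.717, 0.637 to 0.805), and Casz1 102 CPM in GFP+ and 142 CPM in GFP− cells (0.714, 0.560 to 0.901). Rbm24 and Myog lay on the other side. Rbm24 had 468 CPM in GFP+ and 391 CPM in GFP− cells (1.20, 1.07 to 1.34; 0.957 without the 5% of cells with most UMIs), and Myog 6516 CPM in GFP+ and 5887 CPM in GFP− cells (1.11, 1.07 to 1.14). Members at least 1.5-fold lower numbered 2 (Mef2c and Mef2d), against 11.3% of genes, and 0 were higher, against 7.67%. At 2-fold Mef2c was the 1 lower member, against 4.07% of genes.

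In Acta1-poor Myog-expressing cells Myog itself differed between the fractions, at 3720 CPM in GFP+ and 2320 CPM in GFP− cells, a ratio of 1.60 (1.55 to 1.66). Myog was the 1 member of 5 at least 1.5-fold higher, against 5.6% of genes, and 0 were lower, against 9.87%. With the bin edges doubled or as a mean over cells its ratio was 1.47 and 1.46, which ends this call. The state was not matched here either, by genes chosen after their values were seen. The fusion gene Mymk was at 1.77, the actin gene Actc1 at 1.76 and the cell cycle inhibitor Cdkn1a at 1.47 of their GFP− level, and the cycling genes Ccnb1 at 0.259, Cenpf at 0.272 and Ube2c at 0.363 and the receptor Notch3 at 0.419. Other listed genes went the other way, such as the contractile genes Tnnc2 at 0.116, Tnni2 at 0.494 and Mylpf at 0.628. At 1.5-fold, 2 of 14 contractile genes were higher and 3 lower, and 0 of 10 cycling genes were higher and 4 lower. Of 12 differentiation and fusion genes 1 was higher and 0 lower. Among all genes 5.6% were higher and 9.87% lower. Ccnb1, Cenpf, Tnnc2 and Notch3 reached 20 CPM in GFP− cells only. They passed the limit through the group where they were high, so the counts of lower genes in these lists are no support. The part of these differences in the Myog ratio was not tested. Rbm24 was at 1.25 (1.13 to 1.37) and Casz1 at 1.19 (0.927 to 1.52) of their GFP− level. Mef2c had 16 UMIs (11.9 CPM) in GFP+ and 80 UMIs (12.8 CPM) in GFP− cells, a ratio of 0.931 with a wide interval (0.508 to 1.61). This ratio ranged from 0.279 to 1.57 over 10 alternatives, and without the cell with most Mef2c UMIs in each library the levels were 6.74 CPM in GFP+ and 11.1 CPM in GFP− cells. It therefore does not show whether the fractions differed in Mef2c in Acta1-poor cells, and the difference between the states was not tested.

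**Figure D3:**
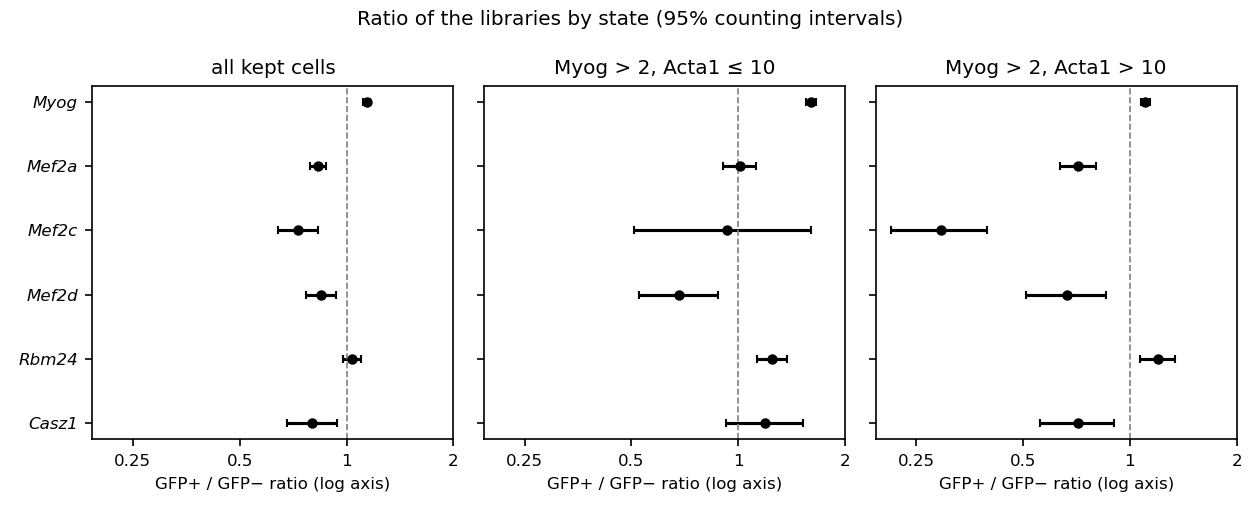
Ratio of the GFP+ to the GFP− level (horizontal log axis) of 6 members in all kept cells, in Myog-expressing cells at or below 10 Acta1 UMIs per 10000 and in those above 10, with bars for 95% counting intervals and a dashed line at equal levels. Mef2c lies at 0.731, 0.931 and 0.294 in the 3 panels, where 0.931 rests on 16 GFP+ UMIs, 7 of them in 1 cell, and ranged from 0.279 to 1.57 over the alternatives, and Rbm24 and Myog lie at or right of the line in each.

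Joint clustering, made without the 7 genes and Acta1 among its variable genes, gave 12 clusters and showed where each gene was carried. Myog and Casz1 were concentrated in cluster 10, the differentiating myocyte-like cells (41 GFP+ and 160 GFP− cells). Myog stood there at 7410 CPM in GFP+ and 6522 CPM in GFP− cells, and at 2214 CPM (GFP+) and 1769 CPM (GFP−) in cluster 4, which had Rbm24, Arpp21, Slc29a1 and Myog among its top genes and was left unnamed. Casz1 stood at 143 CPM (GFP+) and 176 CPM (GFP−) in cluster 10, at 22.8 CPM (GFP+) and 33.4 CPM (GFP−) in cluster 4 and at most 5.27 CPM in the other myogenic clusters. Rbm24 was high in cluster 4, at 415 CPM in GFP+ and 309 CPM in GFP− cells, and in cluster 10, at 461 CPM in GFP+ and 393 CPM in GFP− cells. Macrophage-like cells, which should lack Rbm24, had 0.837 CPM in GFP+ and 18.8 CPM in GFP− cells.

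The MEF2 genes were not confined to myogenic cells. Mef2c was highest in mural-like GFP− cells, at 297 CPM (388 UMIs in 138 cells), and stood at 224 CPM in the 18 glial-like GFP− cells. The mural-like cluster also carried endothelial and fibro-adipogenic markers, and the part of such cells in its Mef2c level was not tested. Macrophage-like cells had 146 CPM in GFP+ and 127 CPM in GFP− cells, and cluster 10 had 55.3 CPM in GFP+ and 182 CPM in GFP− cells. In the myogenic clusters other than 4 and 10 it stood between 0 and 16.3 CPM. The 76 macrophage-like GFP+ cells thus held 175 of the 294 GFP+ UMIs of Mef2c. Mef2a was also broad: 131 CPM in GFP+ and 224 CPM in GFP− macrophage-like cells, 220 CPM in mural-like GFP− cells, and 364 CPM (GFP+) and 533 CPM (GFP−) in cluster 10. Mef2d stood at 89.4 CPM (GFP+) and 145.5 CPM (GFP−) in cluster 10 and at 57.8 CPM (GFP+) and 86.1 CPM (GFP−) in macrophage-like cells.

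Myf6 had another distribution, with at most 11 UMIs in any GFP+ and 21 in any GFP− cluster. Its highest levels were in cluster 5, led by Erfe and Chrdl2 and of low depth, at 6.03 CPM (5 UMIs) in GFP+ and 10.5 CPM (2 UMIs) in GFP− cells. Cluster 1, led by Chodl and Itih5, had 4.67 CPM in GFP+ and 2.80 CPM in GFP− cells. In GFP+ cells it had 0 UMIs in clusters 4 and 10, and in GFP− cells 4 and 5 UMIs there. With so few UMIs no order of the clusters can be read.

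**Figure D4:**
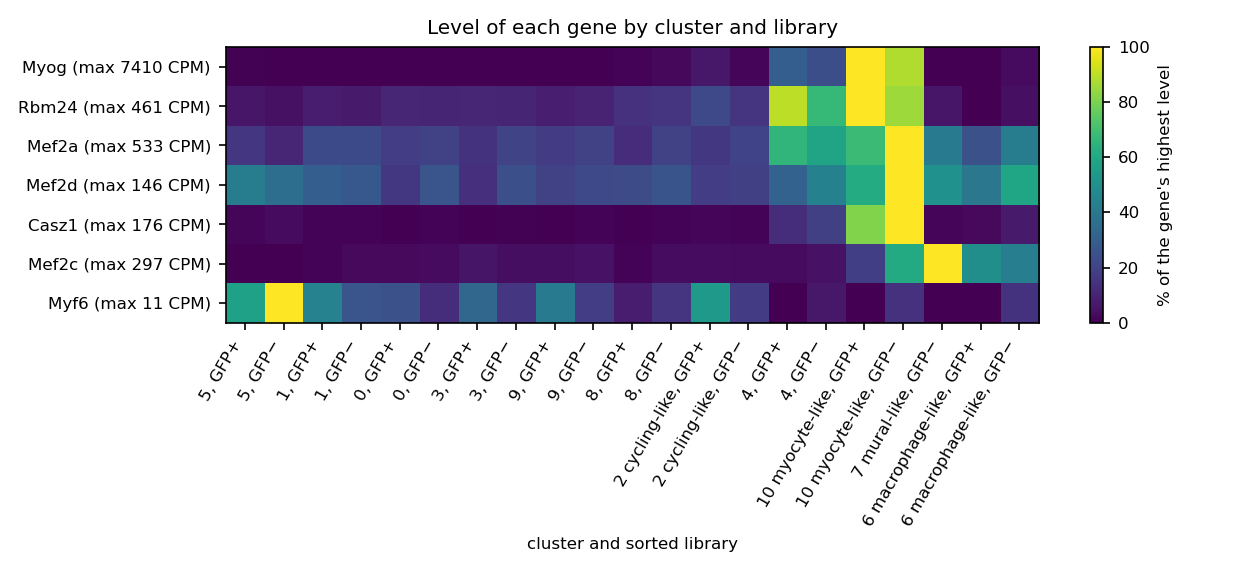
Level of each member by cluster and library (columns, cluster number and fraction; clusters with under 20 cells of a library left out), coloured as a percentage of the member's own highest level, whose CPM stands beside its name. Myog, Rbm24, Mef2a, Mef2d and Casz1 are brightest in the myocyte-like cluster 10, and Mef2c in the GFP− cells of the mural-like cluster at 297 CPM. For Myf6 the UMIs are too few to read an order of the clusters.

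By cells with a UMI, the share that also had a Myog UMI was highest for Casz1, then for Rbm24, among the other members. A Myog UMI was found in 22.0% of all GFP+ and 27.6% of all GFP− cells. A Casz1 UMI was found with a Myog UMI in the same cell in 53 of 62 GFP+ (85.5%) and 251 of 288 GFP− cells (87.2%). Of cells with an Rbm24 UMI, 42.1% of GFP+ and 48.2% of GFP− cells had one of Myog. Outside the members this share was 48.7% (GFP+) and 52.4% (GFP−) for Myod1, and 53.3% (GFP+) and 51.9% (GFP−) for Acta1. For Mef2a this share was 25.8% in GFP+ and 32.6% in GFP− cells, and for Mef2c 29.1% in GFP+ and 36.5% in GFP− cells. Read the other way, cells with a Myog UMI had one of Mef2a in 85.0% of GFP+ and 87.0% of GFP− cells, of Rbm24 in 74.4% of GFP+ and 79.9% of GFP− cells, and of Casz1 in 39.8% of GFP+ and 33.9% of GFP− cells. These shares count any UMI, free RNA included: a Myog UMI was also found in macrophage-like cells, which should lack it, where with thinning to 5000 UMIs 2 of 69 in the GFP+ and 2 of 44 in the GFP− library had one, against 17.3% of all GFP+ and 21.5% of all GFP− cells.

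Depth differed between the fractions, so shares were also taken with every cell thinned to 5000 UMIs, and 66 GFP+ and 190 GFP− cells too shallow for this were dropped. An Rbm24 UMI was then found in 22.3% of GFP+ cells (18.9 to 26.1) and in 28.2% of GFP− cells (26.4 to 29.97), and unthinned in 38.9% of GFP+ and 45.7% of GFP− cells. Macrophage-like cells, thinned alike, had one in 0 of 69 GFP+ and 1 of 44 GFP− cells. The order of the fractions by share goes against that by summed CPM and was not read as one. A Casz1 UMI was found in 5.76% of GFP+ and 5.78% of GFP− cells (unthinned 10.3% of GFP+ and 10.7% of GFP− cells), and among macrophage-like cells 2 of 69 (GFP+) and 3 of 44 (GFP−) had one, so at this depth it did not stand above background over all cells. Among Myog-high cells the Casz1 share was 43.1% in GFP+ (30.2 to 56.8) and 37.7% in GFP− cells (32.5 to 43.2). For Mef2c, without the 3 other cell classes, the share was 2.59% in GFP+ cells (1.35 to 4.48) and 6.35% in GFP− cells (5.40 to 7.42), and unthinned 10.4% in GFP+ and 14.2% in GFP− cells. Macrophage-like cells, which express Mef2c, had one in 49.3% of GFP+ and 40.9% of GFP− cells.

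The partners of MEF2 did not move with Myog as a group. Of 21 listed cofactors and regulators, 18 reached 20 CPM in the GFP+ and 15 in the GFP− library, of which 3 (GFP+) and 2 (GFP−) were at least 2-fold higher in Myog-high than in Myog-0 cells and 4 (GFP+) and 3 (GFP−) at least 2-fold lower. Among all genes 8.9% (GFP+) and 6.69% (GFP−) were 2-fold higher, and 18.8% (GFP+) and 12.5% (GFP−) were 2-fold lower. The list's median log2 ratio was −0.02 in GFP+ and 0.01 in GFP− cells, and that of all genes −0.05 in GFP+ and −0.06 in GFP− cells. Tead4, a TEAD factor of muscle genes, was 84.3-fold higher in GFP+ cells, from 51 and 3 UMIs (27.3 to 422), and 30.4-fold higher in GFP− cells (21.9 to 43.3). Smyd1, a muscle lysine methyltransferase, was 16.1-fold higher (8.27 to 33.8) in GFP+ and 14.8-fold higher (11.1 to 19.9) in GFP− cells. Other partners were lower. Kat2b, an acetyltransferase that co-activates myogenic factors, was at 0.212 (0.0903 to 0.427) of its Myog-0 level in GFP+ and at 0.379 (0.284 to 0.496) in GFP− cells. Camk2d, a calcium-dependent kinase, was at 0.309 in GFP+ and 0.438 in GFP− cells. In both libraries Tead4 and Smyd1 reached 20 CPM in Myog-high cells only, and Kat2b and Hdac5 in Myog-0 cells only. In the GFP+ library Camk2d and Mapk14 also reached it in Myog-0 cells only. These genes passed the limit through the group where they were high, so the 2-fold counts of this list are no support.

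RNA-binding proteins of muscle were mixed as well. Of the 8 that reached 20 CPM in GFP+ cells 2 were higher and 3 lower at 2-fold, and of the 9 in GFP− cells 3 were higher and 1 lower. Among all genes 8.9% (GFP+) and 6.69% (GFP−) were 2-fold higher and 18.8% (GFP+) and 12.5% (GFP−) lower. The list had median log2 ratios of 0.72 (GFP+) and 0.35 (GFP−). Rbm38, a close relative of Rbm24, was 6.43-fold higher (4.77 to 8.70) in Myog-high GFP+ and 6.38-fold higher (5.40 to 7.55) in Myog-high GFP− cells. Rbfox2, a splicing factor, was 2.84-fold higher in GFP+ and 2.17-fold higher in GFP− cells. Ptbp1, a splicing repressor, was at 0.251 (0.172 to 0.357) of its Myog-0 level in GFP+ and at 0.329 (0.280 to 0.385) in GFP− cells. Rbm38 reached 20 CPM in Myog-high cells only, in both libraries, and Ptbp1 in Myog-0 cells only, in the GFP+ library. There they passed the limit through the group where they were high.

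The differentiation and contractile lists went with Myog, and the progenitor list went against it. Of 14 differentiation and fusion genes that reached 20 CPM in GFP+ cells, 12 were at least 2-fold higher and 0 lower, and of 15 in GFP− cells 13 and 0, with median log2 ratios of 2.73 (GFP+) and 2.55 (GFP−). Mymk, a membrane protein of myoblast fusion, was 596-fold higher (313 to 1308, from 1082 and 9 UMIs) in GFP+ and 233-fold higher (184 to 300.5) in GFP− cells. All 17 contractile genes in GFP+ and all 18 in GFP− cells that reached 20 CPM were at least 2-fold higher, with median log2 ratios of 4.43 (GFP+) and 4.83 (GFP−). Differentiation and fusion genes numbering 8 (GFP+) and 9 (GFP−), with 11 (GFP+) and 10 (GFP−) contractile genes, lay below 20 CPM in Myog-0 cells and passed through the Myog-high group, so they had to differ, and these counts are no support. Of the progenitor genes 7 of 9 in GFP+ and 6 of 8 in GFP− cells were at least 2-fold lower. In GFP+ cells 1 and in GFP− cells 0 were 2-fold higher. Among all genes 18.8% (GFP+) and 12.5% (GFP−) were lower and 8.9% (GFP+) and 6.69% (GFP−) higher. Chodl, Notch3, Pax7, Myf5, Heyl and Pax3 in GFP+ cells, and Chodl and Pax7 in GFP− cells, reached 20 CPM in Myog-0 cells only. They passed through the group where they were high, so they had to differ, and these counts are no support. Pax7, the satellite cell factor, was at 0.0496 of its Myog-0 level in GFP+ and 0.106 in GFP− cells, and the receptor Notch3 at 0.0304 in GFP+ and 0.116 in GFP− cells. Of the cycling list 1 of 8 genes in GFP+ and 7 of 10 in GFP− cells were at least 2-fold lower, against 18.8% (GFP+) and 12.5% (GFP−) of all genes, so the GFP+ count does not stand above that share. Cenpf in GFP+ cells, and Ccnb1 and Mcm5 in GFP− cells, also reached 20 CPM in Myog-0 cells only.

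Likeness was measured as Pearson's r of log2(CPM + 10) with each member over 21 sums of cluster and library of at least 20 cells, among 8952 genes, as a description across sums that share libraries. Myog was most like Mymx (0.98) and Mymk (0.97), both fusion proteins, then Mycl (0.96), Acta1 (0.96) and Actc1 (0.95), the cardiac alpha-actin. Casz1 was most like Ermap (0.98), Shisal1 (0.98) and Klhl41 (0.98), a sarcomere-associated Kelch protein. Rbm24 was most like Acsl3 (0.97), Cap2 (0.96), an actin regulator, and Aamdc (0.95). The MEF2 genes had other neighbours. Mef2a was nearest to Tmem38b (0.93), an intracellular cation channel, Inpp4b (0.89) and Macf1 (0.89). Mef2d was nearest to Tmcc3 (0.92), Phlpp1 (0.85) and Ago2 (0.85), and Mef2c to Fam107b (0.91), Ankrd44 (0.88) and Slc25a33 (0.87). For Myf6 the sums held too few UMIs to rank genes by likeness.

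Between the members, r with Myog was 0.88 for Rbm24, 0.86 for Casz1, 0.77 for Mef2a, 0.53 for Mef2d and 0.24 for Mef2c. Mef2c and Rbm24 were unrelated over these sums, with r of −0.01, and over all 21 Mef2c was nearest to Mef2d (0.65) and Mef2a (0.63) among the members. In the 10 GFP+ sums alone it was nearest to Casz1 (0.42), then Mef2d (0.40) and Mef2a (0.39). Mef2c was high in macrophage-like cells, where Myog was at 4.19 CPM in GFP+ and 227 CPM in GFP− cells (145 UMIs in 7 of 57 cells), and in mural-like GFP− cells, where Myog was at 4.60 CPM.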

How the data were processed

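The 2 droplet libraries were analysed, 1 per sorted fraction, with groups taken from the sample labels. The authors deposited UMI counts as raw matrices, empty droplets included, made with Cell Ranger version 4 per the file headers. Seurat and the build mm10 are named in the submitters' processing notes; the sources used here do not give counting settings, strand use or annotation release. Of the barcodes with 1000 or more UMIs, 604 of 647 GFP+ and 2683 of 3076 GFP− ones had 500 or more genes and no more than 10% mitochondrial UMIs and were analysed (library totals 13928952 and 49709323 UMIs). UMIs were summed over cells and divided by the total of the same cells (CPM), with exact Poisson intervals, exact conditional (Clopper-Pearson) intervals for ratios and exact binomial intervals for shares, all at 95% and for counting error only. Genes counted toward a background share when they reached 20 CPM in either group compared. No doublet caller was run, and leaving out the 5% of cells with most UMIs was tried instead. Empty droplets were barcodes with at most 100 UMIs.

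Cells were clustered with scanpy 1.11.5 (2000 variable genes without the 7 genes and Acta1, 30 components, 15 neighbours, Leiden resolution 0.6, no integration), and clusters were named from marker lists rebuilt for this work, since no annotation by the authors was used. The calculation was tested on simulated counts. Named genes were the 7 genes, Mef2b, Acta1, Myod1 and Myf5, from each list up to 4 genes with the largest ratio, and by likeness 5 genes for Myog and 3 for each other member. Members and lists were chosen with earlier results of these data known. Promoter sequences are from RefSeq (GRCm38.p6); 6 of the 7 members have one there.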

Additional observations from a re-analysis of the deposited data

How the results depend on the processing

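No paired analysis was possible because there was 1 library per fraction and the labels give no replicate numbers. Alternatives were other barcode and mitochondrial limits, leaving out the 3 other cell classes (macrophage-like, mural-like, glial-like) or the cells with most UMIs, other scalings, means over cells, thinning and other bin edges. Of the counts of members past a fold, 165 values under an alternative stayed within 1.5 times of the reported count and 11 did not. Many of the reported counts were 0, and a 0 that stayed 0 is among the 165. Of the values of single members or of all genes, 423 stayed within the counting interval (within 1.5 times for counts of genes), 139 did not and 2 called values changed direction, and of shares and cluster levels 8 stayed and 27 did not. Without the 3 other cell classes, 1 member (Mef2c, at 0.475) in place of 0 was at least 1.5-fold lower in GFP+ cells. Among Myog-expressing GFP+ cells, Acta1-rich over Acta1-poor, 2 members (mean over cells) and 3 (edges halved) in place of 1 were at least 2-fold higher. In Acta1-rich cells the members at least 1.5-fold lower in GFP+ numbered 1 at 5% mitochondrial UMIs, without the other cell classes, thinned and with edges halved, and 4 with edges doubled, in place of 2. In Acta1-poor cells 1 was lower at 5% mitochondrial UMIs in place of 0, and 3 (thinned) and 0 (edges doubled) in place of 1 (Myog) were higher. The direction changed for Mef2d, GFP+ over GFP− in Acta1-rich cells, at 1.0003 as a mean over cells in place of 0.665. It also changed for Myf6, Acta1-rich over Acta1-poor in GFP− cells, at 0.672 without the 5% of cells with most UMIs in place of 1.91, from 5 UMIs in each state. Ratios near 1 also crossed it: GFP+ over GFP− in all cells for Myog (0.978), Rbm24 (0.910) and Mef2d (1.02), in Acta1-rich cells for Rbm24 (0.957) and in Acta1-poor cells for Mef2a (0.951) and Mef2c (1.57), Myog-high over Myog-0 in GFP+ cells for Mef2c (0.806), and Acta1-rich over Acta1-poor in GFP+ cells for Mef2a (0.885) and Rbm24 (0.805). The causes were not tested. The Mef2c ratio of GFP+ to GFP− Acta1-rich cells ranged from 0.212 to 0.430 over 11 alternatives, and that of Acta1-poor cells from 0.279 to 1.57. With 26 GFP+ cells and 46 UMIs there, and at most 75 UMIs of Myf6 in a library, depth limits both genes, and cells of 1 library are not replicates.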
